A study of Homo sapiens with 4 samples.

Results

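SNHG14, PWRN1 and PWAR6 are long non-coding RNA (lncRNA) genes of the imprinted Prader-Willi and Angelman region at 15q11, on the plus strand of chromosome 15. Every transcript that GENCODE assigned to them was taken, which gave 37 of the 19835 non-coding transcripts measured: 20 of SNHG14 (ENSG00000224078), 16 of PWRN1 (ENSG00000259905) and 1 of PWAR6 (ENSG00000257151). In genes, these are 3 of the 11466 with a matched transcript. RNA was measured in HUH7, an established human hepatocellular carcinoma cell line grown untreated in standard medium with serum. The 4 libraries, replicates 1 to 4, form 1 group with no treated or control arm, so levels were compared with a threshold of 5 FPKM, the level at which the study kept transcripts for its knockdown library, and between transcripts within a library. FPKM are fragments scaled by transcript length and library size, and errors are SD over n = 4 libraries throughout. The titles also carry an H (replicates 2 and 4) or an L (replicates 1 and 3), which the submitters call internal names that stand for no variable. Whether the libraries were separate cultures is not stated, and p-values therefore cover the spread of these 4 libraries alone, which may be technical.

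In this region, some genes, though not all, are transcribed from the paternal chromosome while their maternal copies are silent. SNHG14 is a very long transcript that continues downstream of the SNURF-SNRPN gene, carries the tandem small nucleolar RNA (snoRNA) clusters SNORD116 and SNORD115 in its introns, and in neurons runs on opposite to UBE3A, the ubiquitin ligase gene whose maternal loss causes Angelman syndrome. PWRN1 lies upstream of SNURF-SNRPN on the same strand, and PWAR6 lies inside the SNHG14 span. The parental allele of the RNA was not analysed here.

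The libraries held an estimated 4490000 to 5060000 fragments of non-coding RNA. Of 8 liver lncRNAs measured, limma placed 5 above 5 FPKM and 3 below, and their summed level was 1472 to 1674 FPKM. Of 8 neural lncRNAs, 3 (DLX6-AS1, SOX2-OT and RMST) were above, 2 (MIAT and LINC00461) below and 3 (MIR124-2HG, MIR9-3HG and PANTR1) listed at 0, with a summed level of 445 to 572 FPKM. Over all genes tested, 50.3% were above 5 FPKM and 38.5% below.

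HUH7 cells held RNA of PWRN1 and SNHG14, and PWAR6 was listed at 0. PWRN1 transcripts summed to 41.6, 65.5, 67.5 and 36.1 FPKM in replicates 1 to 4, and those of SNHG14 to 12.5, 14.3, 13.6 and 12.1 FPKM. The lowest PWRN1 library was above the highest SNHG14 library. Within a library, PWRN1 was 3.67-fold above SNHG14, a log2 ratio of 1.88 ± 0.35 on the log2(FPKM + 1) scale, in 4 of 4 libraries (exact two-sided sign-flip permutation p = 0.13, the smallest that 4 libraries allow, and 0.146 after Benjamini-Hochberg adjustment over 7 pairs). Both genes passed the threshold of 5 FPKM by limma, a moderated test fitted over all genes, with log2 differences of 3.11 ± 0.14 (SE, adjusted p = 2.3e-11) for PWRN1 and 1.23 ± 0.14 (SE, adjusted p = 1.5e-06) for SNHG14. The call of SNHG14 rests on 2 transcripts whose annotated models are newer than the deposited versions, and with same-version transcripts only the gene lay below the threshold, at a log2 difference of -2.43. With 50.3% of all tested genes above it, a place above the threshold was common. PWRN1 was higher than 78.5% and SNHG14 higher than 57.8% of the 7124 tested genes, whose median was 7.61 FPKM.

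Most isoforms were not seen. In all 4 libraries, 27 of the 37 transcripts were listed at 0: 14 of SNHG14, 12 of PWRN1 and the 1 of PWAR6. Over all transcripts measured, this held for 7808 of 19835. Another 5 were above 0 in 1, 2 or 3 libraries, with no library over 0.73 FPKM. The 5 that remained, 3 of PWRN1 and 2 of SNHG14, were above 0 in every library and had means above 5 FPKM. Limma was run where the mean was 0.1 FPKM or more, which held for 7 members. It placed 2 above 5 FPKM, ENST00000569908 of PWRN1 and ENST00000546682 of SNHG14. A further 2 were below, ENST00000567647 of PWRN1 and ENST00000554726 of SNHG14, and 3 were on neither side. Over all 11435 transcripts tested, 41.9% were above 5 FPKM and 43.3% below.

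**Figure D1:**
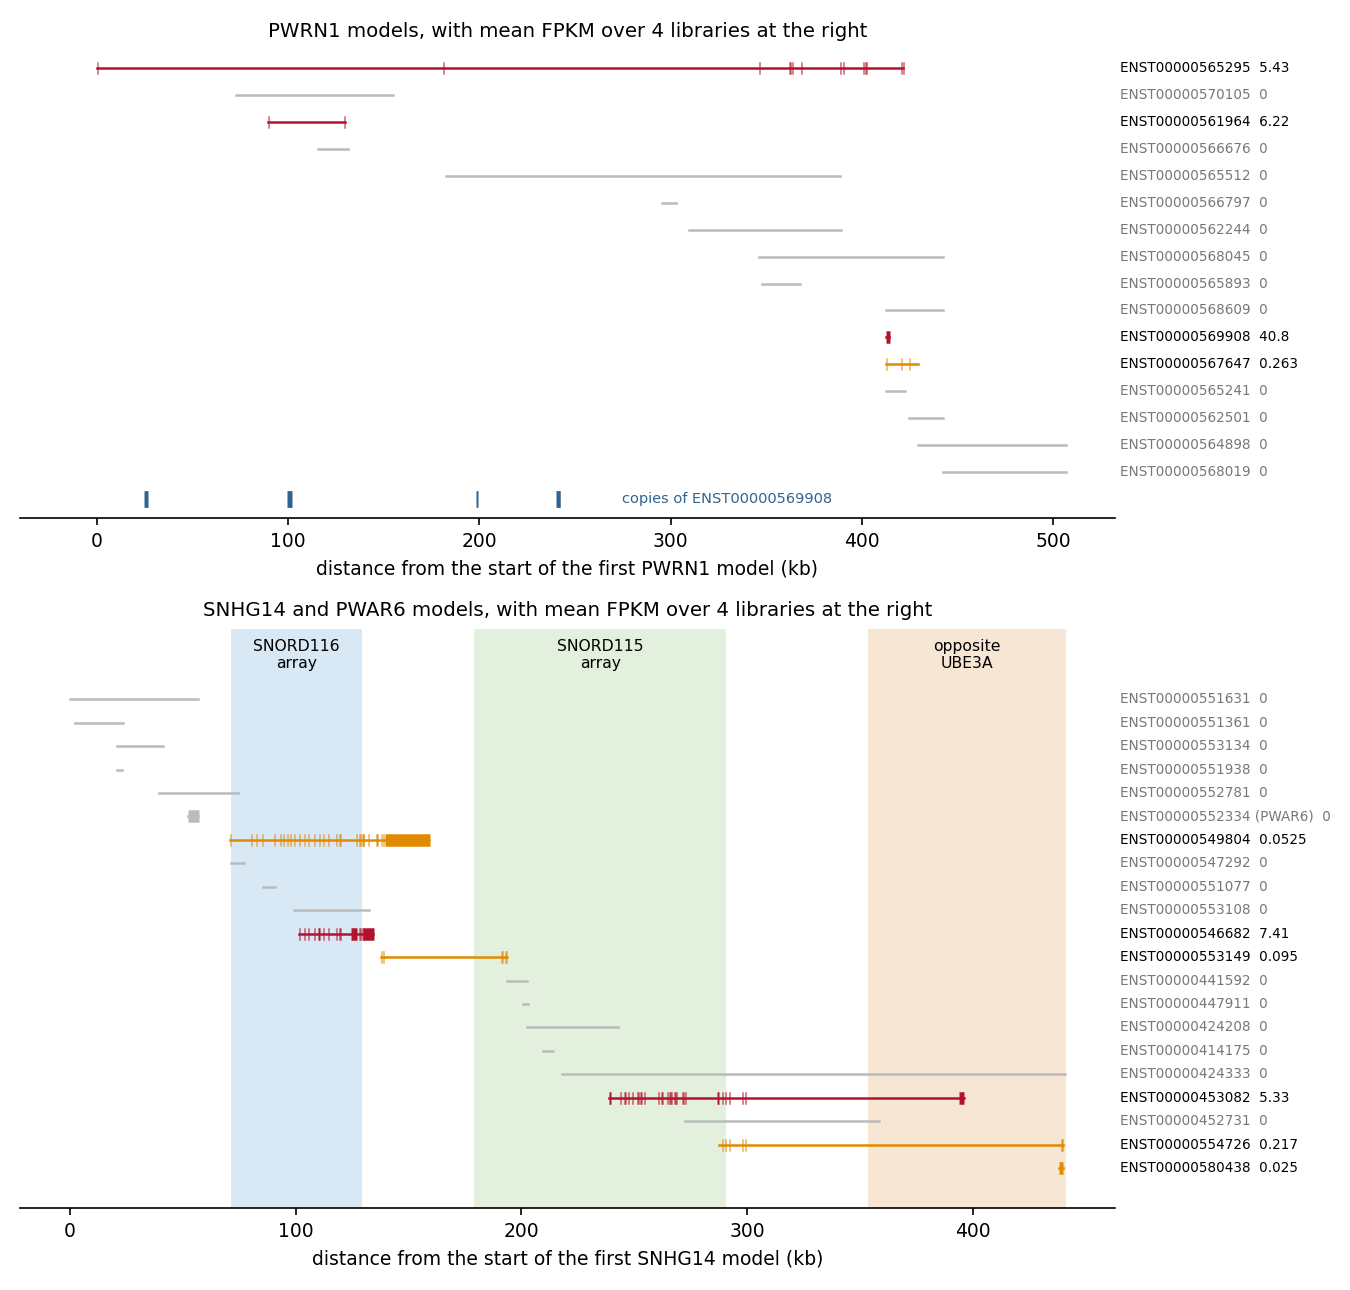
Models of the 16 PWRN1 transcripts (top) and of the 20 SNHG14 transcripts with PWAR6 (bottom) by distance in kb from the start of the first model, with the mean FPKM over 4 libraries at the right. Red models had means above 5 FPKM, orange ones lower means above 0 and grey ones 0 in all libraries. Exons are blocks, widened where needed to be visible, and were drawn for models above 0 and PWAR6. Blue marks show the stretches similar to ENST00000569908. The 5 red models are scattered among 27 grey ones, and the highest of them, at 40.8 FPKM, is the short unspliced PWRN1 model.

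SNHG14 RNA came almost wholly from 2 of the 20 transcripts. ENST00000546682 had 6.69, 7.77, 7.80 and 7.36 FPKM in replicates 1 to 4, and ENST00000453082 had 5.64, 5.62, 5.37 and 4.71 FPKM. Every library was above 5 FPKM for the first transcript and 3 of 4 for the second. Limma gave ENST00000546682 a log2 difference of 0.48 ± 0.17 (SE, adjusted p = 0.026) from the threshold. That call was lost without replicate 2, 3 or 4, with adjusted p of 0.057, 0.088 and 0.058, at log2 differences of 0.46 to 0.49. ENST00000453082 was not separated from 5 FPKM (0.08 ± 0.19, SE, adjusted p = 0.72). Within a library ENST00000546682 exceeded ENST00000453082 by a log2 ratio of 0.41 ± 0.14, in 4 of 4 libraries, with the same smallest p of 0.13 (exact sign-flip test).

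Together they made up nearly all of the gene. ENST00000546682 took 53.5%, 54.4%, 57.3% and 60.8% of the summed SNHG14 level, a mean of 56.5 ± 3.3%, and ENST00000453082 took 40.7 ± 2.9%. The coefficient of variation of their levels over the libraries was 6.98% for ENST00000546682 and 8.14% for ENST00000453082. From about 310 and 153 estimated fragments a library, counting alone would give 5.68% and 8.09%. These counting values rest on the lengths of the GENCODE models, which have newer versions than the deposited transcripts, and do not cover the division of reads between isoforms by RSEM.

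**Figure D2:**
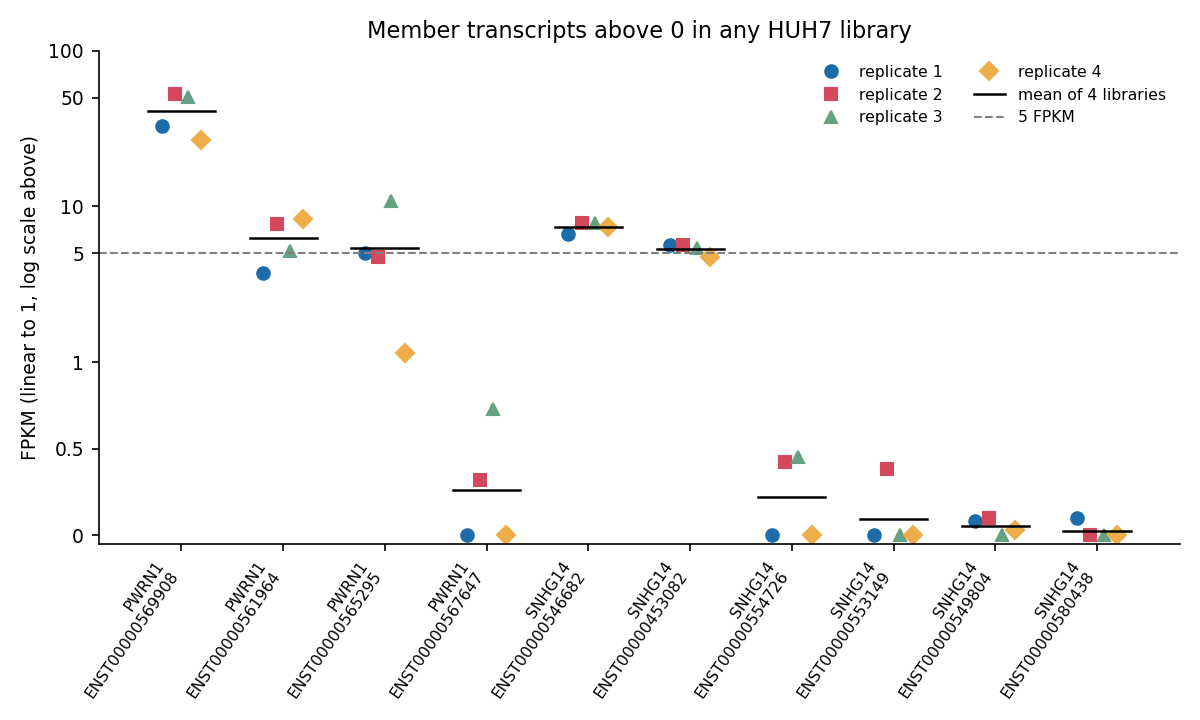
FPKM of the 10 member transcripts above 0 in any library (vertical axis linear to 1 and logarithmic above), with 1 symbol per replicate, a bar at the mean of 4 libraries and a dashed line at 5 FPKM. Symbols of the 2 main SNHG14 transcripts lie close together at 4.71 to 7.80 FPKM, while those of ENST00000565295 of PWRN1 spread over 1.14 to 10.84 FPKM.

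The other 4 SNHG14 transcripts above 0 were low in every library. ENST00000554726 had 0, 0.42, 0.45 and 0 FPKM and was below the threshold (adjusted p = 2.4e-06 by limma). In the present models, that with most exonic bases, ENST00000549804, has 33 exons and spans all 25 annotated snoRNA genes of the SNORD116 array. It had 0.08, 0.10, 0 and 0.03 FPKM. ENST00000553149 and ENST00000580438 were above 0 in a single library each.

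Position along the locus was then used to divide SNHG14, at the ends of the annotated snoRNA arrays and of UBE3A (GRCh37). Each transcript was placed where most of its exonic bases lie. Upstream of SNORD116 (chromosome 15, 25223730 to 25296623), all 5 transcripts were listed at 0 in every library. The 2 transcripts placed in the SNORD116 array (25296624 to 25353499) were listed at 0 as well. Between the arrays (25353500 to 25404367), 3 transcripts summed to 6.77, 7.87, 7.80 and 7.39 FPKM, a share of 56.9 ± 3.1%. In the SNORD115 array (25404368 to 25515005), which holds 45 annotated snoRNA genes, 8 transcripts summed to 5.64, 6, 5.37 and 4.71 FPKM, a share of 41.4 ± 2.8%, although 6 of the 8 were at 0. No transcript was placed in the gap before UBE3A (25515006 to 25578874), and the 2 placed opposite UBE3A (25578875 to 25665483) summed to 0.10, 0.42, 0.45 and 0 FPKM. ENST00000453082, placed in the SNORD115 array, also has 198 exonic bases in that gap and 1955 opposite UBE3A. The sums of the gap and of the stretch opposite UBE3A therefore leave out RNA of this transcript.

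The SNORD115 array was lower than the stretch between the arrays in 4 of 4 libraries, by a log2 ratio of -0.40 ± 0.14 (exact sign-flip p = 0.13, adjusted 0.208 over 5 neighbouring pairs). Each of both was held almost wholly by 1 main transcript, so this ratio repeats the comparison of ENST00000546682 with ENST00000453082. These segments rest on whole transcripts and not on read positions, and on models that for both main transcripts are newer than the version deposited. ENST00000546682 has 4157 exonic bases in the SNORD116 array and 4685 after it, and when transcripts were placed by their first base, the SNORD116 array held 56.5% and the stretch between the arrays 0.665% of the SNHG14 level. The model ENST00000553108, which overlaps ENST00000546682 with more exons in the array, was listed at 0.

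The exons given next for ENST00000546682 and ENST00000453082 are those of version 5 of each, while version 1 was measured and may differ. ENST00000546682 (chromosome 15, 25326301 to 25359074) has 17 exons and 8842 nt. In this model, 4122 bases lie in no other member model. Of these, 2193 are 1 intron of ENST00000549804 (25349118 to 25351310), which ENST00000546682 keeps inside its exon 12, and 1929 lie in its last exon of 4373 nt. Both ends of this intron are shown, since it forms more than any other part of the sequence that tells the transcript from its neighbours. Capitals mark the first 2 and the last 2 bases of the intron, which are those of an ordinary splice site.
SNHG14 donor, chr15:25349088-25349147, plus strand, GRCh37: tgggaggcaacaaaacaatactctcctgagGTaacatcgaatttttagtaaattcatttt
SNHG14 acceptor, chr15:25351281-25351340, plus strand, GRCh37: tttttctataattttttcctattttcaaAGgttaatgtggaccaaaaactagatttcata

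ENST00000453082 (25463499 to 25620623) has 39 exons in 6087 nt and spans 22 snoRNA genes, none of which lies in an exon. Many of its exons are alike in length: 12 are 131 to 133 nt long and 14 are 41 to 45 nt long. Over 25 pairs of long exons of equal length, compared without gaps, the lowest identity was 27.1%, the median 78.0% and the highest 96.2%. Without gaps, a pair shifted by an insertion or deletion also scores low, so a low identity cannot tell whether an exon is a repeat copy. That highest pair, exons 5 and 12, differs at 5 of 132 bases, in capitals, and is printed because the stretches between these bases are identical in both exons.
SNHG14 exon 5, chr15:25470162-25470293, plus strand, GRCh37: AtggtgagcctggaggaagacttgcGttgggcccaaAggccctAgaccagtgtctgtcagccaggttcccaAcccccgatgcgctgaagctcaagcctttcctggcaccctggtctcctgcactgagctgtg
SNHG14 exon 12, chr15:25477347-25477478, plus strand, GRCh37: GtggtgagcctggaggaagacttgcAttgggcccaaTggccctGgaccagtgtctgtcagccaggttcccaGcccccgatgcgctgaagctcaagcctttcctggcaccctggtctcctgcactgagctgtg

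Despite these repeats, only 11.97% of the 24-mers of ENST00000453082 and 2.57% of those of ENST00000546682 occurred at least 2 times in the genome. Of the 2544 bases of ENST00000453082 found in no other member model, 1955 are its last exon, which lies inside the UBE3A gene on the opposite strand. Of exons in protein-coding UBE3A transcripts, only its last 12 bases (25620612 to 25620623) pair with any, in capitals in the stretch that ends ENST00000453082. Exons of other UBE3A transcripts were not compared.
SNHG14 end opposite UBE3A, chr15:25620564-25620623, plus strand, GRCh37: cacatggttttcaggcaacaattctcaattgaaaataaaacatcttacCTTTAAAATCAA

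UBE3A itself is a coding gene and was not analysed here. The sources used here do not give the strand setting of the alignment, and reads of a UBE3A precursor and of this exon cannot be told apart in these values. A lncRNA on the UBE3A strand inside that gene, ENSG00000261529, had 2.91, 3.93, 4.57 and 4.31 FPKM, and was not separated from 5 FPKM (adjusted p = 0.20 by limma). Its part in the level of ENST00000453082 was not tested.

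PWRN1 RNA was led by 1 transcript without introns. ENST00000569908 had 32.9, 52.8, 50.8 and 26.7 FPKM in replicates 1 to 4, with replicates 2 and 3 high and replicates 1 and 4 low. It lay above the threshold by a log2 difference of 2.74 ± 0.17 (SE, adjusted p = 2.4e-07 by limma) and averaged 40.8 ± 12.98 FPKM, a rank above 88.7% of all 19835 transcripts (median over the libraries). Of the summed PWRN1 level it took 78.9%, 80.6%, 75.2% and 73.9%, a mean of 77.2 ± 3.1%. Because it forms most of that sum, its share varies less than its level. It exceeded the SNHG14 transcript ENST00000546682 by a log2 ratio of 2.26 ± 0.41, and ENST00000565295 of its own gene by 2.89 ± 0.71, each in 4 of 4 libraries with p = 0.13 (exact sign-flip test).

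The other PWRN1 transcripts above 5 FPKM changed order between libraries. ENST00000565295, a model of 15 exons that runs over most of the gene (24390510 to 24812032), had 5.03, 4.71, 10.84 and 1.14 FPKM. ENST00000561964, with 3 exons and 448 nt (24480225 to 24520162), had 3.76, 7.70, 5.16 and 8.27 FPKM. Each was the higher of both in 2 of 4 libraries, and their log2 ratio was 0.36 ± 1.33 (exact sign-flip p = 0.75). This order followed the letters of the titles: ENST00000561964 was higher in the H libraries (7.70 and 8.27 FPKM) than in the L libraries (3.76 and 5.16 FPKM), and ENST00000565295 lower in H (4.71 and 1.14 FPKM) than in L (5.03 and 10.84 FPKM). These were 2 of the 7 tested members without overlap between the letters, against 27.8% of all tested transcripts, and no test of 2 against 2 libraries can give a p below 0.33. Neither was separated from 5 FPKM (adjusted p = 0.72 and 0.39 by limma), and for ENST00000565295 the mean lay above 5 FPKM but the mean on the log scale below it.

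**Figure D3:**
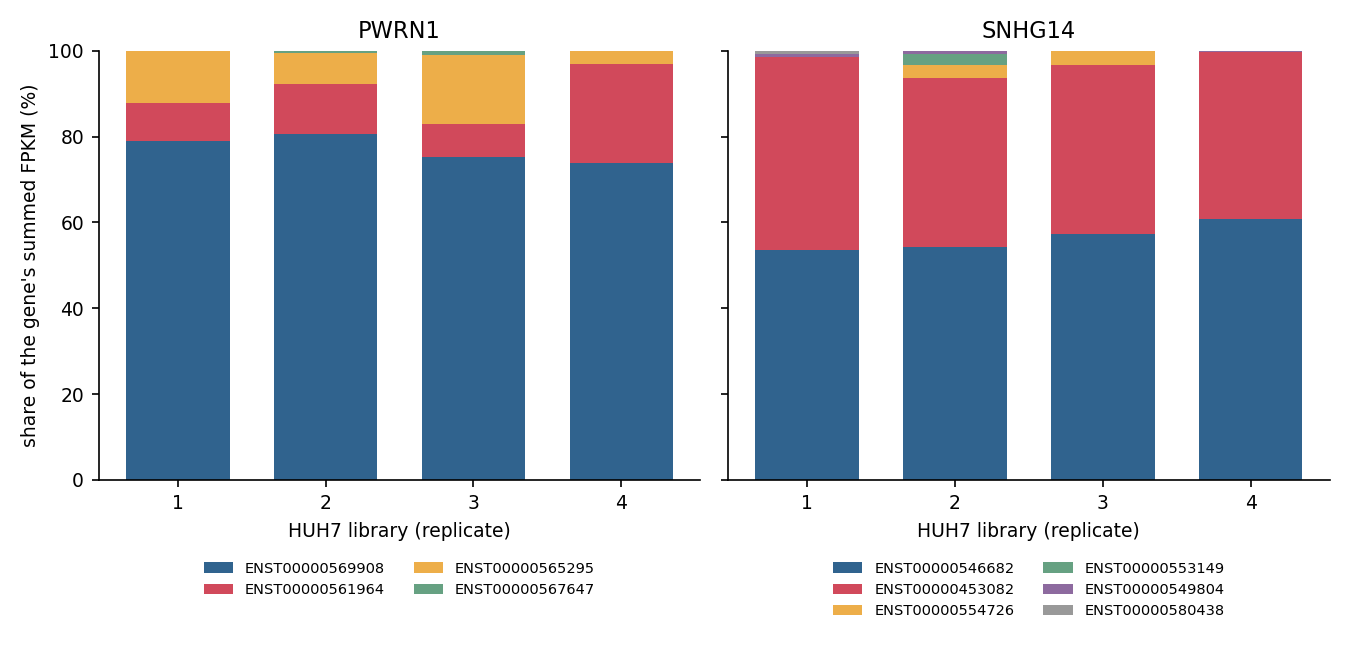
Share of each isoform in the summed FPKM of PWRN1 (left) and SNHG14 (right), in percent, in each of the 4 libraries. ENST00000569908 holds 73.9% to 80.6% of PWRN1 in every bar, the next PWRN1 isoform differs between bars, and SNHG14 is divided between ENST00000546682 and ENST00000453082 in all 4.

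Libraries differed more in PWRN1 than counting would give. The coefficient of variation was 31.8% for ENST00000569908, against 6.16% from its estimated 263 fragments a library, and 73.9% for ENST00000565295, against 12.4% from 65.0 fragments. For ENST00000561964 it was 34.2% against 30.05% from only 11.1 fragments. The deposited version of ENST00000565295 is older than the model used for its length.

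In all, 4 PWRN1 models begin within 66 nt of each other. Of these, the 3 spliced ones were near or at 0: ENST00000567647 had 0, 0.32, 0.73 and 0 FPKM, and ENST00000568609 and ENST00000565241 were listed at 0. All 3 end their first exon at base 24803468 (GRCh37) in the present models. Those of ENST00000567647 and ENST00000568609 are version 5, while version 1 was measured and may differ in start and exons. By contrast, ENST00000569908 (24803305 to 24804739, 1435 nt) reads on for a further 1271 nt that no other member model holds. The stretch around that splice donor is printed, with the first 2 bases after the exon in capitals, because the spliced and the unspliced model part there.
PWRN1 donor, chr15:24803429-24803508, plus strand, GRCh37: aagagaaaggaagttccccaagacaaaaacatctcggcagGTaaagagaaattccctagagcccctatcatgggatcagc

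This sequence is repeated inside the gene. Of ENST00000569908, 97.8% had matches of at least 200 nt and 90% identity elsewhere in the locus, in 7 stretches of 93.8% to 97.1% identity on the same strand, all within the PWRN1 gene. By the matched models, none of the 7 lies on an exon of another transcript in the table. The donor stretch occurs in 4 of them, 173 to 388 kb upstream, with 2 to 6 differences in 80 bases, and all 4 keep the bases GT after the exon. Capitals mark the bases that differ from the stretch above.
PWRN1 copy 1, chr15:24415269-24415348, plus strand, GRCh37: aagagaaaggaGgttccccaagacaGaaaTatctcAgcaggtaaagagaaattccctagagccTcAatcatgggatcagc
PWRN1 copy 2, chr15:24490310-24490389, plus strand, GRCh37: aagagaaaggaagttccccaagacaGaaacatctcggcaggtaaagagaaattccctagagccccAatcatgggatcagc
PWRN1 copy 3, chr15:24588834-24588913, plus strand, GRCh37: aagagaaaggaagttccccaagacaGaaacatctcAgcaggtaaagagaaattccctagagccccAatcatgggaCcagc
PWRN1 copy 4, chr15:24630812-24630891, plus strand, GRCh37: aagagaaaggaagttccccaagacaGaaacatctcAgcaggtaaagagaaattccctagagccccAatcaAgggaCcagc

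Shared sequence was accordingly far higher than in SNHG14. Of the 24-mers of ENST00000569908, 55.03% occurred at least 2 times in the genome, 48.5% at least 2 times in the locus and 12.8% at least 10 times in the genome. For ENST00000565295, 49.7% occurred at least 2 times, and 9 stretches of the locus matched it at up to 97.8% identity. For ENST00000561964, 46.1% occurred at least 2 times. Outside the locus, 22.2% of the 24-mers of ENST00000569908 were found, 20% of those of ENST00000561964 and 5.15% of those of ENST00000565295. The part that reads from the copies in the locus or from matches outside it had in the PWRN1 levels was not tested.

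The RefSeq start of PWRN1 falls 1 base before that of ENST00000569908. Its promoter, from 250 bases before to 50 after the start, shares a stretch with that of PWRN2, a non-coding gene on the minus strand. The 3 PWRN2 transcripts were listed at 0 in all libraries. Over 122 bases without a gap, 115 (94.3%) were the same between opposite strands, and the longest identical run was 39 bases. The stretches of PWRN1 and PWRN2 lie as far apart as ENST00000569908 and its repeat with copy 1 above (388.161 kb). They are therefore read as part of that repeat and not as a separate likeness. Where the repeat ends was not examined. Both are shown on the plus strand, from RefSeq on GRCh38.p14, with the bases that differ in capitals.
PWRN1 promoter stretch, chr15:24558060-24558181, GRCh38.p14: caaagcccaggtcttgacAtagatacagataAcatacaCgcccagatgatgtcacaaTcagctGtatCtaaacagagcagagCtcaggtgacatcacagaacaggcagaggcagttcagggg
PWRN2 promoter stretch, chr15:24169899-24170020, GRCh38.p14: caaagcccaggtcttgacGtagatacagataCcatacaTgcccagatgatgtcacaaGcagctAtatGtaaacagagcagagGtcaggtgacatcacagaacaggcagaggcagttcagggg

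PWAR6 has 1 transcript of 1 exon, ENST00000552334 (25277020 to 25281637, 4618 nt), listed at 0 in all 4 libraries. All of its 24-mers also occur in version 7 of the SNHG14 model ENST00000551631. Version 1 of that transcript was measured and listed at 0 as well, and whether it holds this sequence was not examined. A lncRNA of 1 transcript in the span from the PWRN genes to UBE3A, ENSG00000260780, had 0.93, 0, 0.44 and 0 FPKM, and PWRN4 was listed at 0. Of the measured transcripts of other genes, that of ENSG00000260780 shared the most 24-mers with the present PWRN1 model ENST00000565295. In that model, 3.0% of the 24-mers occurred in measured transcripts of other genes. The part of this sharing in the PWRN1 levels was not tested.

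Of 25 named genes of 15q11-q13 on the list, 5 had a transcript in the table: PWRN1 and SNHG14 were above 5 FPKM, and PWAR6, PWRN2 and PWRN4 were at 0. Of 8 measured lncRNAs from other imprinted loci, limma placed 3 above 5 FPKM and 1 below. MEG8 and MEG3, which lie together at 14q32 and are transcribed from the maternal allele, averaged 941 ± 99 and 50.6 ± 3.3 FPKM, and WT1-AS 31.2 ± 7.1 FPKM. GNAS-AS1, the antisense transcript of the GNAS locus, was below at 2.68 ± 0.90 FPKM (adjusted p = 0.0077), H19 was on neither side (5.93 ± 2.38 FPKM, adjusted p = 0.56), and KCNQ1DN, MEG9 and ZFAT-AS1 were listed at 0. The median of the 5 that were tested was 31.2 FPKM, against 7.61 FPKM over all tested genes.

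**Figure D4:**
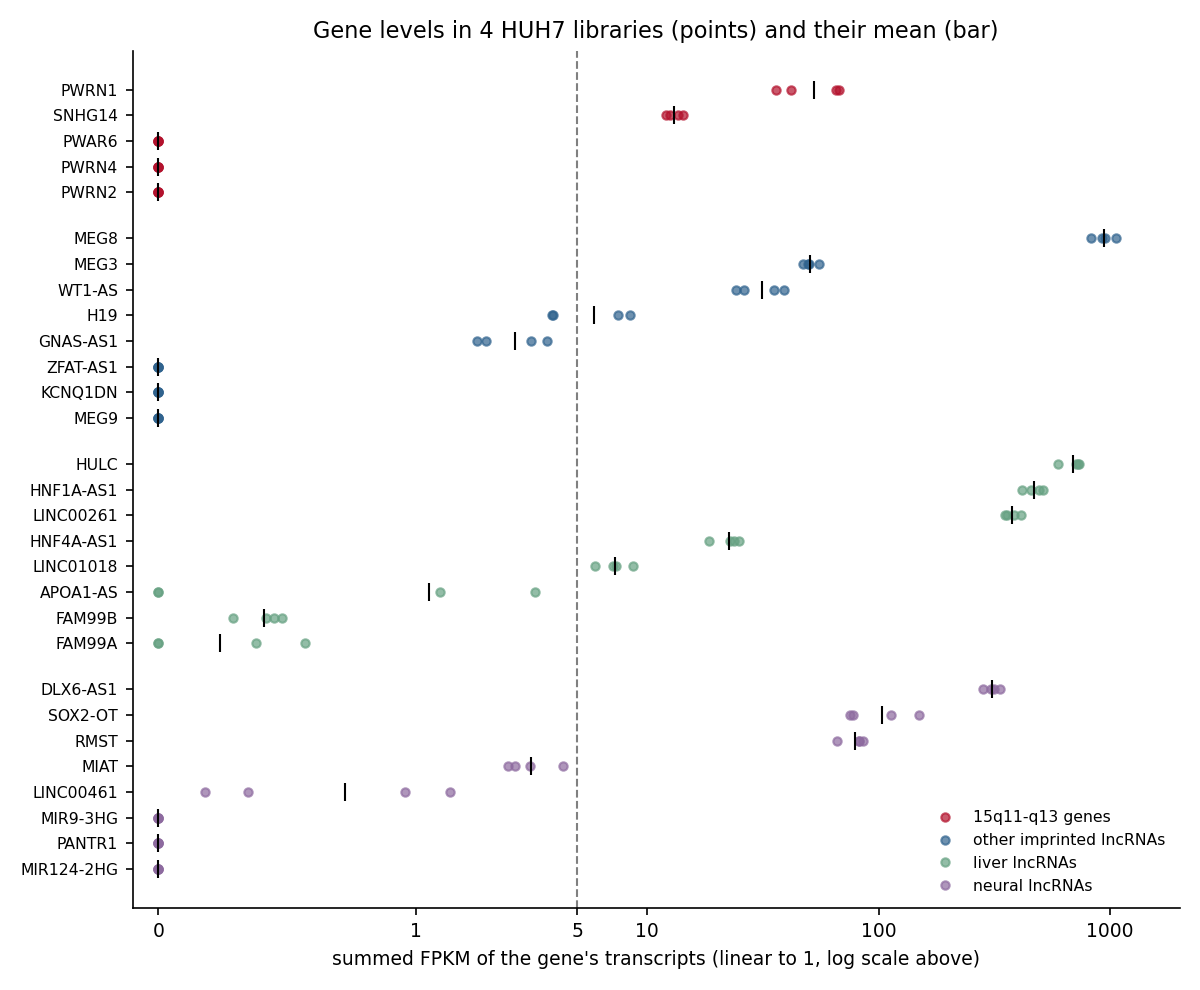
Summed FPKM of genes in 4 HUH7 libraries (points) with the mean (bar), on an axis linear to 1 and logarithmic above, for 15q11-q13 genes, other imprinted lncRNAs, and liver and neural lncRNAs. The dashed line is 5 FPKM. PWRN1 and SNHG14 lie right of it in every library, and PWAR6, PWRN4 and PWRN2 at 0.

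Finally, the genes with the most similar values over the 4 libraries were found among 5079 named genes, by the root mean square of the log2 differences. For SNHG14 these were LINC02630 (0.056, 13.6 ± 1.2 FPKM), LINC01886 (0.088) and NCMAP-DT (0.092). For PWRN1 they were TTLL7-IT1 (0.087, 52.7 ± 13.5 FPKM), SNORA71B (0.12) and CDC42EP3-AS1 (0.14). Like PWRN1, TTLL7-IT1 had its higher values in replicates 2 and 3, with 42.2, 65.8, 62.8 and 39.9 FPKM. With 4 libraries such likeness is a description.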

How the data were processed

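The authors deposited FPKM values of non-coding transcripts in 4 HUH7 libraries, with 2 decimals. RNA was sequenced strand-specifically after Ribo-Zero depletion (the labels name the molecule as polyA RNA), and reads were aligned with Bowtie 1.01 to Ensembl 68 non-coding transcripts on hg19 and summarised per transcript with RSEM 1.2.3. RSEM divides reads shared by isoforms or repeats, so their FPKM depend on each other. Identifiers were matched without version to GENCODE 44 on GRCh37: 18373 of 19835 matched, and 16 of 37 members had the same version. The 1462 unmatched could hold further isoforms.

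The log2(FPKM + 1) values were tested against log2(5 + 1) with limma 3.58.1 (R 4.3.3; trend, two-sided) over all transcripts or genes with a mean of at least 0.1 FPKM, adjusted by Benjamini-Hochberg, at 0.05. Log2 differences on this scale understate those of low transcripts. Pairs within libraries had an exact sign-flip permutation test. Depth was estimated from steps of low values; 70.9% to 71.8% lay within 0.05 of a whole fragment, so no count test was run. Counting errors cover counting only. Repeats were 24-mer counts over GRCh37 and blastn 2.17.0 matches. All members and every gene of the lists were named; members and lists were chosen with earlier results of these data known. The limma step was tested on simulated data.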

Additional observations from a re-analysis of the deposited data

Results flagged for a closer look

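In 2 of 12 sets of 4 libraries examined for a value far from the others, 1 library held the only value above 0. The limit used lets about 1 in 20 sets of continuous values pass by chance, but 3 values at 0 with 1 above it pass by construction. SNHG14 ENST00000553149 was at 0.38 FPKM in replicate 2 and at 0 in the others, and SNHG14 ENST00000580438 was at 0.10 FPKM in replicate 1 and at 0 in the others. For both, the value was below that of 1 estimated fragment (0.484 and 0.146 FPKM).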

How the results depend on the processing

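No paired analysis was possible because each replicate number occurs once and the letters in the titles stand for no variable. The number of member transcripts above the threshold, 2, became 5 against 1 FPKM and 1 against 10 FPKM, and ranged from 1 to 2 without 1 replicate. The number below, 2, became 5 against 10 FPKM, 5 with no filter on low values and 0 with a filter at a mean of 1 FPKM, which removes both. Without replicate 1, 3 or 4 it was 3. With same-version transcripts only, 1 gene, PWRN1, remained above 5 FPKM, since both main SNHG14 transcripts have newer versions. SNHG14 then lay at a log2 difference of -2.43, and ENST00000569908 took 86.0% of PWRN1. Against 10 FPKM, limma placed ENST00000453082 (-0.80), ENST00000561964 (-0.66) and ENST00000565295 (-1.02) below as well, and left ENST00000546682 on neither side (-0.39, adjusted p = 0.058). Against 1 FPKM ENST00000565295 (1.44) lay above. As shares of estimated fragments, ENST00000546682 took 65.9% and ENST00000453082 32.5% of SNHG14, and ENST00000565295 took 17.6% and ENST00000561964 3.70% of PWRN1. By position, fragments put 67.1% between the arrays and 32.6% in the SNORD115 array. Placed by first base, 0.397% of SNHG14 lay upstream of SNORD116, 56.5% in its array and 0.665% between the arrays. The log2 ratio of ENST00000561964 to ENST00000565295 ranged from -0.23 to 0.79 without 1 replicate. In all, 117 values of the comparisons were taken as unchanged, on their side or within their spread, while 19 moved and 1 reversed. The unchanged ones include the numbers below the threshold without 1 replicate. For log2 differences of single transcripts and genes from the threshold, 99 were unchanged, 5 reversed, 3 weaker and 3 stronger. Low isoforms with under 1 estimated fragment a library cannot be ranked at this depth.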
